A study of Mus musculus with 6 samples.

Results

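The genes described here build the intercalated disc, the seam through which heart muscle cells are joined end to end. They are 10 genes of gap junctions, adherens junctions and desmosomes, namely Gja1, Gja5, Cdh2, Ctnna3, Tjp1, Dsg2, Dsc2, Dsp, Jup and Pkp2, out of 22180 genes measured. They were listed by name, with earlier results of these data known. Where a gene had several probes, the brightest on average across the 6 arrays stood for it. That choice of probe used no difference between groups. All 10 had a probe of their own. Expression was measured on Affymetrix arrays in hearts of mice of mixed C57BL/6 x 129S6 background. All mice carried Nkx2.5-Cre, a Cre recombinase driven from the Nkx2.5 gene in cardiac progenitors and their descendants. The 3 control hearts had the genotype Nkx2.5-Cre alone, and the 3 transgenic hearts the genotype Nkx2.5-Cre; R26R-miR302-367, whose microRNA cluster Cre switches on at the Rosa26 locus. The source name and the harvest protocol place the hearts at postnatal day 14, while the age field reads E14, and this conflict is unresolved. Separate animals are not named in the labels, although Xist and Y-linked genes place males and females in each group, so p-values cover only the spread among these samples, part of which may be technical.

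Gap junctions are channels that couple neighbouring heart muscle cells electrically, each made of connexin proteins. Adherens junctions anchor the sarcomeres of neighbouring cells to each other through the cadherin N-cadherin and its catenins, and desmosomes tie the desmin filaments together through desmogleins, desmocollins and their plaque proteins. In the heart these junctions mature and gather at the cell ends after birth, and inherited defects of desmosomal genes are known to cause arrhythmogenic cardiomyopathy. Gja5, by contrast, is known from atrial muscle, the conduction system and arterial endothelium.

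The agent switched on in the transgenic hearts is the cluster itself, and the mature 3' strands of 4 of its 5 microRNAs, all but miR-302a, are shown because their seed, bases 2 to 8, decides which messages they pair with. The sequences come from the RefSeq annotation of GRCm38.p6, where the hairpins lie on the plus strand at chr3:127545228-127545807. They are written 5′ to 3′ with the seed in capitals.
miR-302b-3p: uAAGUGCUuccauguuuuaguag
miR-302d-3p: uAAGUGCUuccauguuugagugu
miR-302c-3p: aAGUGCUUccauguuucagugg
miR-367-3p: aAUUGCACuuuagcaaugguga
The miR-302b and miR-302d strands share the seed AAGUGCU. The annotated miR-302c strand starts a base later on the same run of letters, which gives AGUGCUU, and miR-367 has the unrelated seed AUUGCAC. The probe of the Mir302c gene read 3.60, 3.53 and 2.98 on the log2 scale in controls and 10, 9.97 and 9.97 in transgenic hearts. The other 4 cluster genes were also higher in the 3 transgenic hearts, with no overlap. Mature microRNAs were not measured, and target sites in these genes were not searched.

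The array medians lay between 5.45 and 5.54 on the log2 scale, and the correlation between arrays across all probes was 0.982 to 0.989 within a group and 0.974 to 0.983 between groups. Among 12 ventricular muscle markers, Tnnt2 and Pln are given as examples that were bright in all samples, while Hey2, Myh7 and Irx4 rose. Tnnt2, cardiac troponin T, had a control level of 13.38 ± 0.048 on the log2 scale and a transgenic level of 13.36 ± 0.076 (SD, n = 3 each), and Pln, phospholamban, 13.50 ± 0.042 and 13.49 ± 0.0030. The groups did not overlap for 7 of the 12 markers, against 30.9% of all genes. Besides the 3 that rose, these were Myl2, higher by 0.24 on the log2 scale, and Tnni3 (-0.11), Actc1 (-0.11) and Myh6 (-0.09). These differences did not pass an adjusted p of 0.05 in the limma test. Precision is limited by there being 6 arrays. In whole hearts, fewer cells of a type and less RNA per cell cannot be told apart.

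Most junction genes differed little between the groups, and 2 of 10 passed the test. Dsc2, the desmosomal cadherin desmocollin 2, fell to 59.4% of its control level in transgenic hearts. Ctnna3, the αT-catenin of heart muscle, rose 1.39-fold. The connexins, N-cadherin, desmoplakin, plakoglobin, Tjp1, Dsg2 and Pkp2 did not pass. Across all 22180 genes, 11.1% passed an adjusted p of 0.05 in the limma test, 5.35% higher and 5.76% lower in transgenic hearts. Of the genes that passed, 48.2% were higher, against 36.4% after quantile normalization was repeated and 38.1% after arrays were centred on their medians. With 1 gene in each direction, the count among these 10 is close to that background. Controls and transgenic hearts were without overlap for 5 of the 10 genes, against 30.9% of all genes.

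**Figure D1:**
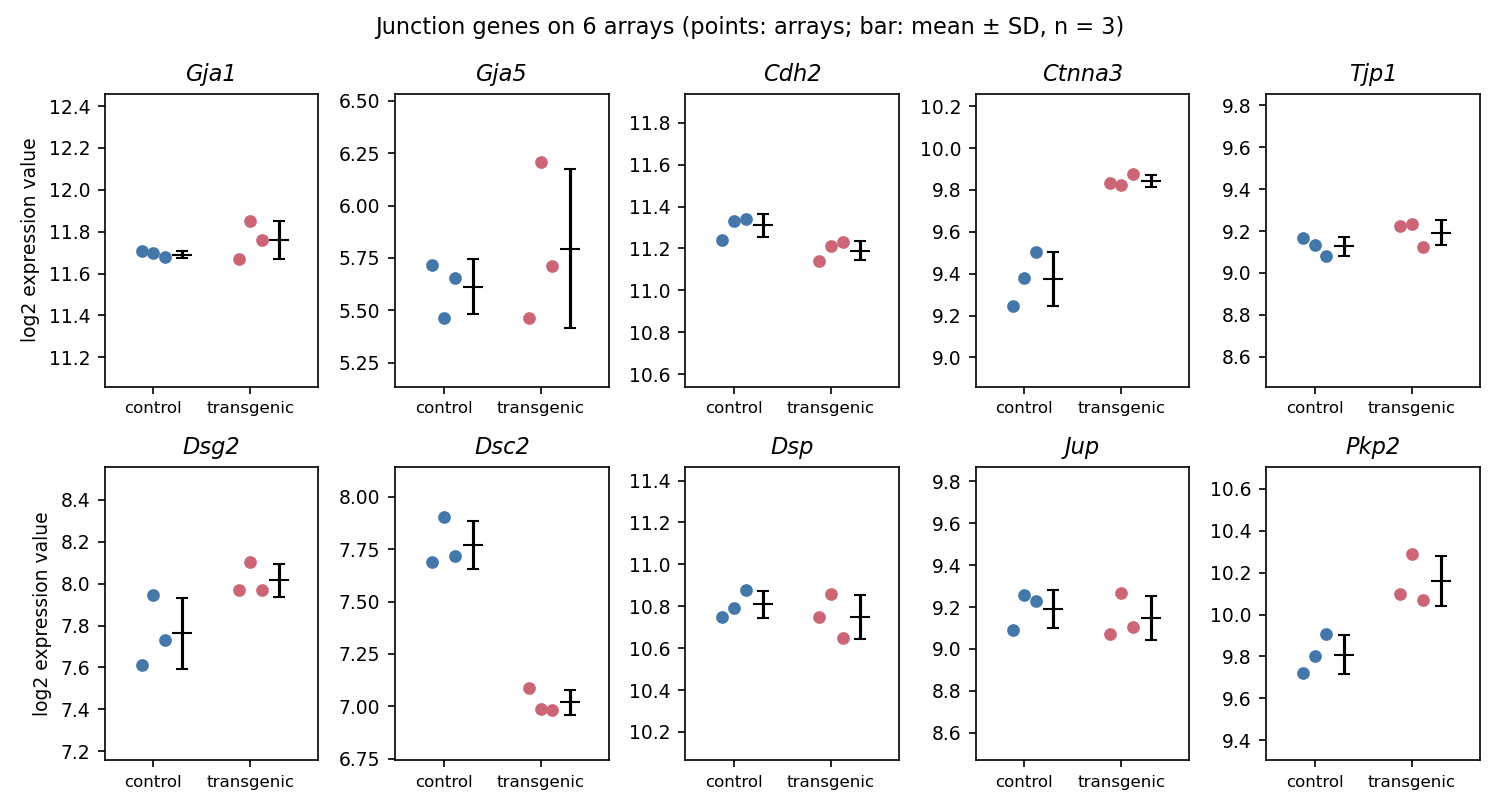
Log2 expression value (y axis, every panel spanning the same range of log2 units) of each of the 10 junction genes in 3 control and 3 transgenic hearts; points are arrays and the bar beside them is the mean ± SD. The Dsc2 points of transgenic hearts lie between 6.98 and 7.09, below all controls, and those of Ctnna3 between 9.82 and 9.88, above all controls.

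Gja1 encodes Cx43, the main connexin of the working myocardium. Its log2 values were 11.71, 11.70 and 11.68 in control hearts and 11.67, 11.85 and 11.76 in transgenic hearts. The groups overlapped, with the lowest value in a transgenic heart, and the 3 controls lay closer together than the 3 transgenic hearts. The difference was 0.06 on the log2 scale (95% interval -0.13 to 0.26, adjusted p = 0.703). The interval thus reaches neither the size of the Dsc2 difference nor that of Ctnna3.

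Gja5 encodes Cx40, the connexin of atrial muscle, the fast conduction fibres and arterial endothelium. Its probe was dim, near the array medians, with 5.72, 5.46 and 5.65 in control and 5.46, 6.21 and 5.71 in transgenic hearts. Transgenic 2 stood above the other 5 samples, which covered the same range in both groups. The difference was 0.18 on the log2 scale (SE 0.17, 95% interval -0.21 to 0.58, adjusted p = 0.575). It was -0.02 without transgenic 2 (adjusted p = 0.948) and 0.35 without transgenic 1 (adjusted p = 0.274). With a term for sex, read from Xist and Y-linked genes, it was 0.32 (adjusted p = 0.168). A further probe, annotated to both Gpr89 and Gja5, was left unnamed by the rule. It read 7.97, 7.90 and 7.84 in control and 7.76, 7.72 and 7.72 in transgenic hearts, and which of the genes it measures is unknown.

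Markers of atrial muscle, arterial endothelium and the conduction system, where Gja5 is known, went in both directions. Of 13 atrial markers, 5 rose (Myl7, Myl4, Sln, Nppa and Dkk3) and 1 fell (Kcna5). Their mean log2 level was 7.83 to 8.10 in control and 8.25 to 8.51 in transgenic hearts. Of the 2 arrays that shared the lowest Gja5 value, control 2 had the lowest atrial mean (7.83), while that of transgenic 1 (8.25) was above all controls. Transgenic 2 had the highest of both. Of 11 arterial endothelial markers, 5 fell (Cxcr4, Hey1, Efnb2, Sox17 and Dll4), with a mean level of 7.48 to 7.61 in control and 7.16 to 7.29 in transgenic hearts. Of 12 conduction system markers, 3 rose (Cacna1g, Vsnl1 and Slit2) and 1 fell (Hcn2). Slit2 lost its call without any single array (adjusted p 0.0616 to 0.141) and in 5 of 9 other fits (up to 0.110). Of 6 fits with an array left out, Vsnl1 lost its call in 3 and Hcn2 in 5. Among the atrial markers, Myl7 lost its call without control 2, transgenic 2 or transgenic 3 (adjusted p up to 0.137). Myl7 also lost it in 2 of 9 other fits (up to 0.157), and Sln lost its call without transgenic 2 (0.0504). With single arrays left out, 4 to 6 atrial, 0 to 5 arterial and 1 to 2 conduction markers passed. Without control 1, transgenic 1 or transgenic 2, 0 of the arterial markers passed, and without control 2, 2 did. The atrial count was 4 without transgenic 2, and the conduction count was 1 without control 1 or transgenic 2 and 2 without any other array. The part of these tissues in the Gja5 values was not tested.

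The adherens junction is held by Cdh2, N-cadherin, the classical cadherin of heart muscle. Its log2 values were 11.24, 11.33 and 11.34 in control and 11.14, 11.21 and 11.23 in transgenic hearts. The transgenic hearts lay just below the controls without overlap. The gap from the highest transgenic heart to the lowest control was smaller than the range within either group. The difference of -0.11 (95% interval -0.30 to 0.07) did not pass (adjusted p = 0.446). A second, dimmer Cdh2 probe gave -0.10 (adjusted p = 0.621 with every probe tested).

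Ctnna3 encodes αT-catenin, which links N-cadherin to actin and binds plakophilin 2, so that it bridges adherens junctions and desmosomes. It read 9.24, 9.38 and 9.5 in control and 9.83, 9.82 and 9.88 in transgenic hearts. The transgenic values were almost equal to each other, and the lowest of them was above the highest control. The rise was 0.47 on the log2 scale (SE 0.093, 95% interval 0.26 to 0.68, adjusted p = 0.0146). The call was lost, narrowly, without control 1 (adjusted p = 0.0565), transgenic 1 (0.0535), transgenic 2 (0.0530) or transgenic 3 (0.0541), while the difference itself stayed between 0.40 and 0.53.

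Ctnna1, the αE-catenin that is expressed in most cell types and shares the role in heart muscle, did not pass. Its control level was 10.33 ± 0.12 on the log2 scale and its transgenic level 10.35 ± 0.097 (SD, n = 3 each), a difference of 0.01 (95% interval -0.21 to 0.23, adjusted p = 0.963), whose sign changed when the arrays were rescaled. The difference of Ctnna3 from Ctnna1 within an array was -1.02, -0.90 and -0.97 in controls and -0.50, -0.43 and -0.57 in transgenic hearts. It thus shifted by 0.46 towards Ctnna3. The pair was chosen after the values were seen, so the shift carries no test, and the size of the difference within an array also holds the unequal brightness of the probes.

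The 250 bases before the first of the 3 annotated starts of Ctnna3 are shown because this is the junction gene that rose. They lie on the plus strand of GRCm38.p6 at chr10:63429848-63430097 in RefSeq, with the match to the GC box GGGCGG in capitals, here on the opposite strand, beginning 139 bases before the start.
Ctnna3: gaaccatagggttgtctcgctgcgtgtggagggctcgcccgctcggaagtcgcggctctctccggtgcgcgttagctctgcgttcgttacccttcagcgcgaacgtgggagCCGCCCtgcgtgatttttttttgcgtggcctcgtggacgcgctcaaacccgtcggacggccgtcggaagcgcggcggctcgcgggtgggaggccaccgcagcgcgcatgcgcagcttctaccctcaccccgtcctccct
The letters GGGCGG were found on either strand in 32.7% of all 32851 windows of this length. The windows before the other 2 Ctnna3 starts did not hold them. Of the other motifs searched, which are spelled out with Gja1, a match was found in the window of the second start only.

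Tjp1, the scaffold protein of the zonula occludens that borders gap junction plaques, read 9.17, 9.14 and 9.08 in control and 9.22, 9.23 and 9.12 in transgenic hearts. The groups overlapped, and the difference of 0.07 (95% interval -0.12 to 0.25) did not pass (adjusted p = 0.687).

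The desmosomal cadherins of heart muscle are Dsg2, desmoglein 2, and Dsc2, which pair with each other across the gap between cells. Dsc2 read 7.69, 7.90 and 7.72 in control and 7.09, 6.99 and 6.98 in transgenic hearts. The groups were separated by more than the full range of either. It fell by 0.75 on the log2 scale (SE 0.093, 95% interval -0.96 to -0.54, adjusted p = 0.00181). The call held in all 6 fits with an array left out (adjusted p between 0.0043 and 0.0123), and in all 9 other alternative fits.

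Dsg2 read 7.61, 7.95 and 7.73 in control and 7.97, 8.10 and 7.97 in transgenic hearts. The highest control came close to the lowest transgenic heart, without overlap. The difference was 0.25 (95% interval 0.01 to 0.49) and did not pass after adjustment (adjusted p = 0.177). A second, dim Dsg2 probe gave 0.05 (adjusted p = 0.861 with every probe tested), so the size of the difference rests on the brighter probe.

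Within each array the Dsc2 value minus the Dsg2 value was 0.08, -0.04 and -0.01 in controls and -0.88, -1.12 and -0.99 in transgenic hearts. This difference thus changed by -1.005 on the log2 scale, with Dsc2 at -0.75 and Dsg2, which did not pass, at 0.25. This pair too was chosen after the values were seen and carries no test.

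**Figure D2:**
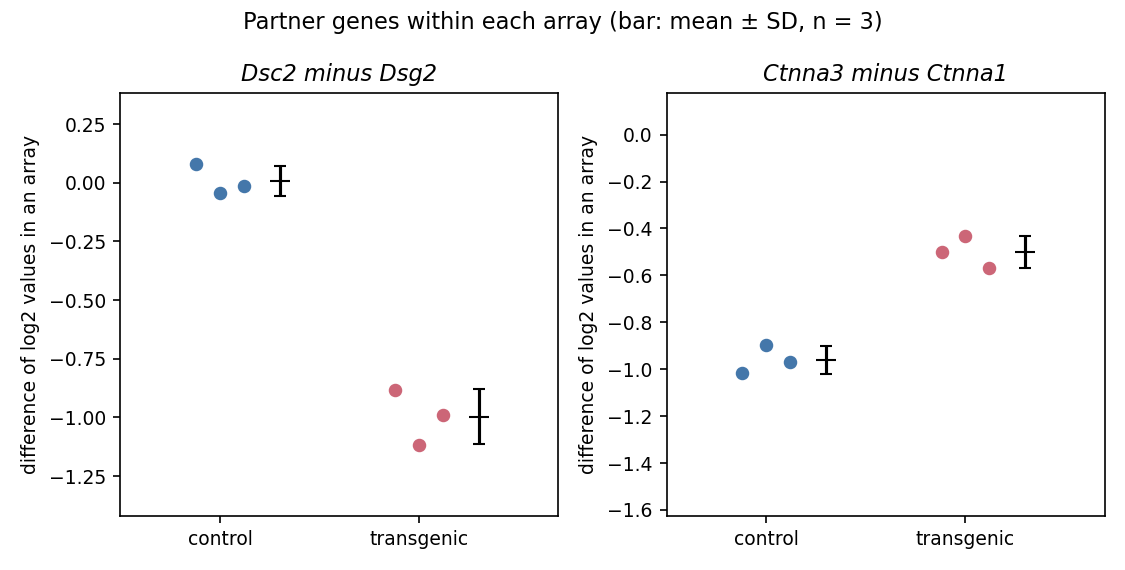
Difference of log2 values between partner genes within an array (y axis, log2 units) for Dsc2 minus Dsg2 and Ctnna3 minus Ctnna1 in 3 control and 3 transgenic hearts; points are arrays and bars are mean ± SD. The mean of Dsc2 minus Dsg2 is 0.0079 in control and -0.997 in transgenic hearts, and that of Ctnna3 minus Ctnna1 is -0.96 and -0.50; only the step between groups can be read, since probes differ in brightness.

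Dsc2 and Dsg2 belong to a run of 9 desmosomal cadherin genes on mouse chromosome 18, where RefSeq places 6 others between them. Of the 9 genes, Dsc2 and Dsg1a fell and 0 rose. Dsg1a, a desmoglein of stratified epithelia, had a dim probe, below the array medians, with 5.23 ± 0.049 in control hearts and 4.77 ± 0.20 in those with the transgene (SD, n = 3 each). Its call (adjusted p = 0.0335) was lost without any array other than transgenic 2, with adjusted p-values up to 0.104, and with the sex term (0.0693). Dsc1, Dsc3, Dsg1b, Dsg1c, Dsg3 and Dsg4 had group means from 3.71 (Dsg1b) to 4.56 (Dsg4) and did not pass. Of 11 epicardial, mesothelial and epithelial markers, 1 rose (Krt18) and 1 fell (Msln), and their mean level was 6.31 to 6.44 in control and 6.12 to 6.37 in transgenic hearts. With an array left out, 0 to 1 of these markers passed, with 0 without control 1, control 3 or transgenic 2. Msln lost its call without any single array (adjusted p 0.0534 to 0.114), and Krt18 without control 1, control 3, transgenic 2 or transgenic 3 (adjusted p up to 0.0688), with its probes averaged (0.0605) and with the sex term (0.0600). Of the 11, 8 were lower in transgenic hearts, with a median of -0.30 on the log2 scale beside -0.03 over all genes. Epcam, a defining epithelial marker, had means of 4.36 and 4.19, under the array medians. Msln and Wt1 of the same list lay above them, with 7.24 and 6.66 and with 7.48 and 7.11. The part of such cells in the Dsc2 and Dsg1a values was not tested.

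The desmosomal plaque joins the cadherins to desmin. Jup, plakoglobin, which binds the cadherin tails, read 9.09, 9.26 and 9.23 in control and 9.07, 9.27 and 9.11 in transgenic hearts. The groups covered the same range, and the difference was -0.04 (95% interval -0.26 to 0.17, adjusted p = 0.828). Dsp, desmoplakin, which holds the filaments, read 10.75, 10.79 and 10.88 in control and 10.75, 10.86 and 10.65 in transgenic hearts. These too overlapped, with a difference of -0.05 (95% interval -0.26 to 0.15, adjusted p = 0.772).

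Pkp2, plakophilin 2, which clusters the plaque and is the gene most often altered in arrhythmogenic cardiomyopathy, read 9.72, 9.80 and 9.91 in control and 10.10, 10.29 and 10.07 in transgenic hearts. All transgenic values were above all controls. The difference of 0.35 (SE 0.098, 95% interval 0.12 to 0.57) missed the threshold by little (adjusted p = 0.0547). It passed with dim genes left out (adjusted p = 0.0341), with an intensity trend and robust variance (0.0130), with array weights (0.0260) and without control 3 (0.0495). The adjusted p was 0.182 without transgenic 2 and 0.161 without control 1.

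**Figure D3:**
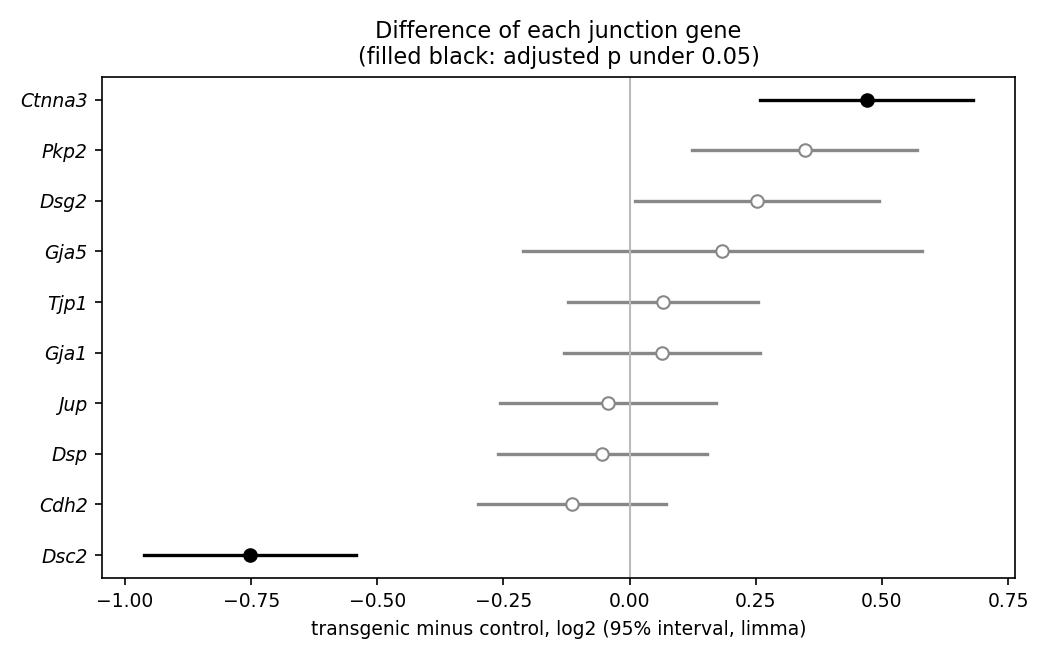
Difference between transgenic and control hearts (x axis, log2) with its 95% interval for each of the 10 junction genes, from limma over 3 arrays a group; filled black points passed an adjusted p of 0.05. Dsc2 at -0.75 and Ctnna3 at 0.47 passed; the intervals of Pkp2 and Dsg2 lie above 0 without passing after adjustment, and the other 6 include 0.

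**Figure D4:**
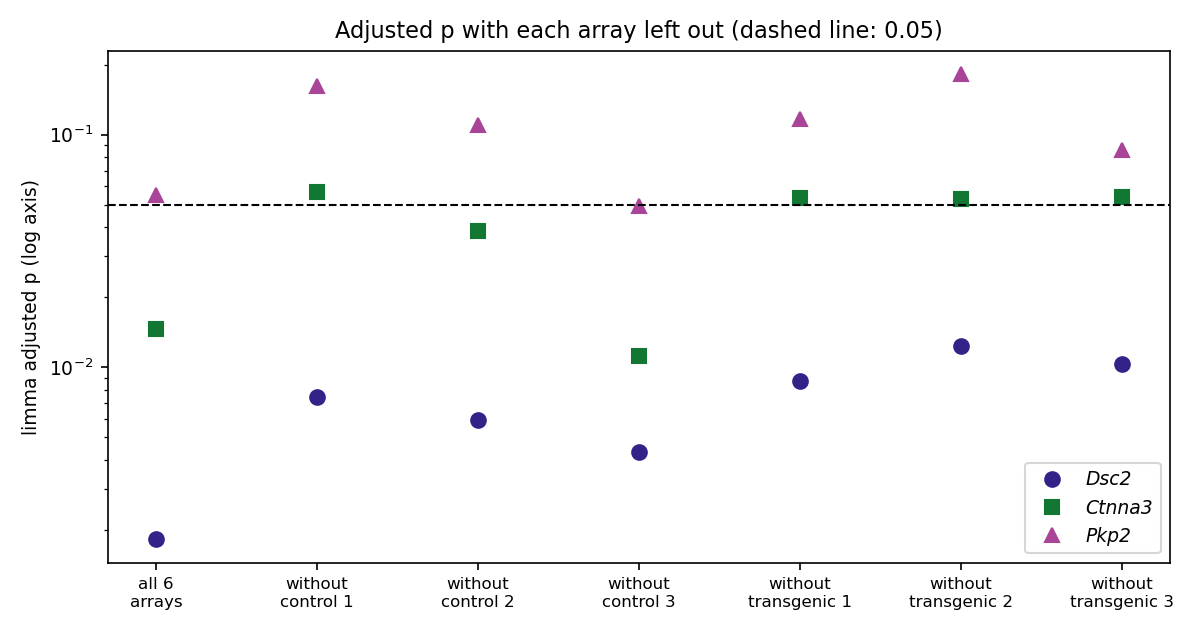
Limma adjusted p (y axis, log scale) of Dsc2, Ctnna3 and Pkp2 with all 6 arrays and with each array left out (x axis); the dashed line is the threshold. Dsc2 stays under it throughout, Ctnna3 crosses it in 4 of 6 cases and Pkp2 falls under it only without control 3.

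The other genes of the disc were read from lists of 71 symbols, of which 60 were measured. Together 5 rose and 5 fell, 16.7% against the 11.1% of all genes, with a median of -0.07 on the log2 scale beside -0.03 over all genes. With an array left out, 4 to 9 of the 60 passed, namely 4 without transgenic 1 or 2, 5 without control 2 or transgenic 3, 6 without control 1 and 9 without control 3. The other 11 were not analysed here.

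Among 13 other connexins and pannexins, 1 fell and 0 rose. Gja3, a connexin best known from the lens, went from 6.82 ± 0.14 to 6.42 ± 0.055 (SD, n = 3 each, adjusted p = 0.0290), and its call was lost without any array other than control 1 (adjusted p up to 0.107). Gja4, the connexin Cx37 of arterial endothelium, had a difference of -0.32 (adjusted p = 0.0795; 0.0439 without transgenic 3 and 0.0438 when quantile normalization was repeated), beside the lower arterial markers given above. Gjc1, which encodes Cx45 of the early heart and conduction system, had 0.07 (95% interval -0.19 to 0.34, adjusted p = 0.766), and -0.06 without transgenic 3.

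Among 14 other adherens junction genes, 1 rose and 0 fell. Ctnnd1, the catenin that holds cadherins at the membrane, went from 9.0 ± 0.10 to 9.34 ± 0.044 (SD, n = 3 each, adjusted p = 0.0442). That call was lost without any array other than control 3 (adjusted p up to 0.143), when quantile normalization was repeated (0.0686) and when arrays were centred (0.0671). Ctnnb1, β-catenin, had -0.06 (adjusted p = 0.755) and Vcl, vinculin, 0.07 (adjusted p = 0.654). Afdn, which links nectins to actin, had 0.26 (adjusted p = 0.0891), and Cdh1, E-cadherin, -0.31 (adjusted p = 0.0747). Each of these passed in 2 alternative fits, with lowest adjusted p-values of 0.0440 and 0.0459. With its 2 probes averaged, Cdh1 had -0.10 (adjusted p = 0.532).

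Of 13 other desmosome and intermediate filament genes, Dsg1a fell, as given above, and 0 rose. Des, desmin itself, read 11.85, 11.84 and 11.94 in control and 11.67, 11.57 and 11.56 in transgenic hearts. The groups did not overlap, and the difference of -0.27 (95% interval -0.46 to -0.08) did not pass (adjusted p = 0.0708). It passed with dim genes left out (0.0410) and with an intensity trend and robust variance (0.00559). Pkp3, a plakophilin of epithelia, had -0.24 (adjusted p = 0.267).

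The scaffold and membrane proteins of the disc held most of the calls. Of 20 measured, 4 rose (Ank3, Bves, Popdc3 and Dlg1) and 3 fell (Xirp2, Tmem65 and Tmem43), which is 35%. With an array left out the count was 3 without transgenic 2, 4 without transgenic 1 or 3, 5 without control 1 or 2 and 8 without control 3. Xirp2, an actin-binding protein of the disc, read 9.01, 9.0 and 8.98 in control and 8.17, 7.88 and 7.66 in transgenic hearts, a fall to 46.9% of the control level (adjusted p = 0.00143). Ank3, ankyrin-G, which anchors membrane proteins at the disc, read 8.50, 8.51 and 8.53 and then 9.35, 9.31 and 9.08, a 1.66-fold rise (adjusted p = 0.00257). Bves, a cAMP-binding membrane protein of muscle, rose 1.42-fold (adjusted p = 0.00633). These 3 calls held with each array left out and in every other alternative fit. Xirp2 has 2 probes, and the fall given is that of the brighter. The Xirp2 difference of -1.09 on the log2 scale lay between -1.13 and -0.73 in those other fits.

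Popdc3, of the same family as Bves, Dlg1, a membrane scaffold, Tmem65, a disc protein that binds Cx43, and Tmem43, a nuclear envelope protein altered in a form of arrhythmogenic cardiomyopathy, are named after their values were seen. Popdc3 rose 1.33-fold (adjusted p = 0.0246) and lost its call without transgenic 1, 2 or 3 (adjusted p up to 0.0916), with centred arrays (0.0510) and with the sex term (0.0552). Dlg1 rose by 0.32 on the log2 scale (adjusted p = 0.0448) and lost its call without any single array (adjusted p 0.0572 to 0.144), in both rescalings (0.0523 and 0.0907) and with the sex term (0.0940). Tmem65 fell to 72.1% of control (adjusted p = 0.0101) and lost its call without transgenic 2 (0.0510). Tmem43 fell to 73.7% (adjusted p = 0.0357) and held its call with an array left out only without control 3 (adjusted p up to 0.115 otherwise), and lost it with the sex term (0.0539).

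**Figure D5:**
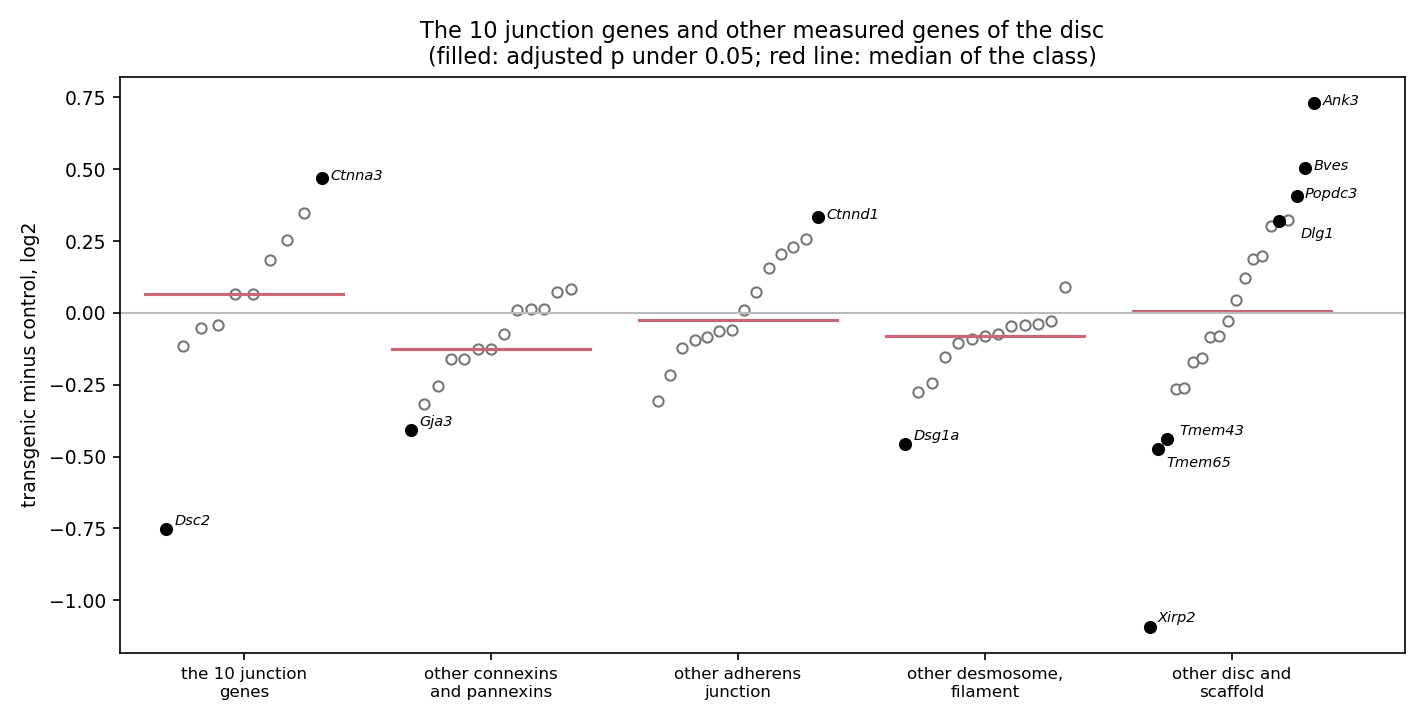
Difference between transgenic and control hearts (y axis, log2) for the 10 junction genes and for 60 other measured genes of the disc in 4 classes (x axis); each point is a gene, filled and named where the adjusted p is under 0.05, and the red line is the median of the class. Of the connexins and pannexins 8 of 13 and of the desmosome and filament genes 12 of 13 lie below 0, with 1 call each. Over all 22180 genes, 12567 lie below 0. The scaffold class holds 7 calls from Xirp2 at -1.09 to Ank3 at 0.73.

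Factors reported to regulate connexin genes were read beside Gja1 and Gja5. Of 15, 1 rose (Tbx18) and 2 fell (Jun and Mef2c). Jun, a subunit of the AP-1 factor, read 10.09, 9.74 and 9.79 in control and 8.86, 9.24 and 9.0 in transgenic hearts, a fall by 0.84 on the log2 scale (adjusted p = 0.00506). Tbx18, a T-box factor of the sinus node and epicardium, rose by 0.66 (adjusted p = 0.00481). Mef2c, a muscle transcription factor, fell by 0.38 (adjusted p = 0.0417). Its call was lost without any single array (adjusted p 0.0633 to 0.136), with the sex term (0.0847) and with its probes averaged, where the difference was -0.06 (0.783).

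Tbx5 and Nkx2-5, which together activate Gja5, had differences of -0.0065 (95% interval -0.19 to 0.18, adjusted p = 0.973) and 0.08 (95% interval -0.11 to 0.26, adjusted p = 0.616). Tbx3, a T-box repressor of both connexins in the conduction system, read 7.44, 7.72 and 7.5 in control and 7.24, 7.22 and 7.10 in transgenic hearts, without overlap. Its difference of -0.36 missed the threshold (adjusted p = 0.0527) and passed in 5 alternative fits (adjusted p 0.0172 to 0.0493). Irx3, a factor of the fast conduction fibres, had 0.40 (adjusted p = 0.131), and passed without control 2 (0.0403).

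The 250 bases before the start of Gja1 are shown because a match to the AP-1 site, TGANTCA, lies there. This window was picked for display after the values of Jun and Gja1 were seen, and a link between them was not tested. They lie on the plus strand of GRCm38.p6 at chr10:56377050-56377299 in RefSeq, with the match in capitals, beginning 19 bases before the start.
Gja1: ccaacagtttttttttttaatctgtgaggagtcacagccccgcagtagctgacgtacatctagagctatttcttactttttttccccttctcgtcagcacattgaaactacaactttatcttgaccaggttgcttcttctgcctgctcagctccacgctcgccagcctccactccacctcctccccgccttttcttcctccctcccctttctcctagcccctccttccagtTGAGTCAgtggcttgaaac
The letters TGANTCA, which read the same on both strands, occurred in 6.75% of all windows of this length. Promoter sequences of 6 of the 10 junction genes were used, those of Ctnna3, Dsp, Gja1, Gja5, Jup and Tjp1. Of these, only the Gja1 window held TGANTCA, and it also held AGATAA, the GATA site, 135 bases before the start, as 9.99% of all windows did. The Gja5 window held AAGTG, a core of Nkx2-5 sites, 62 bases before the start, which 40.7% of windows hold, and GGGCGG. The T-box letters GGTGTGA, found in 3.33% of all windows, had 0 matches in the windows of the 6 genes. Motifs were read on both strands, and those searched do not overlap each other in the printed windows. A match is a string of letters and was not measured as bound.

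Genes whose values ran closest to those of Dsc2 and Ctnna3 over the 6 arrays were taken by the smallest Euclidean distance between values centred on each gene's own mean. Nearest to Dsc2 were Oma1, a mitochondrial protease (distance 0.104), Lgals4, a galectin (0.105), and Syngr2, a vesicle membrane protein (0.108), which differed by -0.71, -0.75 and -0.76 on the log2 scale. Nearest to Ctnna3 were Ube4b, a ubiquitin ligase (0.0831), Aurkb, a mitotic kinase (0.0887), and DQ267102 (0.0976), with differences of 0.43, 0.50 and 0.46. With 6 arrays in 2 groups, such closeness mostly states that the step between the groups was of like size.

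Marker genes of other cell types of the heart, and of heart muscle, were read beside these genes. Of all 22180 genes, 11.1% passed. Of 14 endothelial markers 9 fell and 0 rose, with a mean log2 level of 8.92 to 9.04 in control and 8.52 to 8.66 in transgenic hearts. Of 10 macrophage markers 6 fell and 0 rose, with 7.12 to 7.22 and 6.43 to 6.64. Of 10 smooth muscle and pericyte markers 4 fell (Rgs5, Kcnj8, Acta2 and Pdgfrb) and 1 rose (Cnn1), and of 10 fibroblast markers 1 rose (Postn). Postn lost its call without any single array (adjusted p 0.0682 to 0.159) and in 4 of 9 other fits (up to 0.0785). Another fibroblast marker, Fap, passed without control 2 (0.0290). Rgs5 lost its call with its probes averaged (0.0710). Pdgfrb lost its call without any array other than control 2 (adjusted p up to 0.113) and in 2 of 9 other fits (up to 0.0692). Acta2 lost its call without transgenic 1 or 3 (up to 0.0883). Of 12 ventricular muscle markers 3 rose (Hey2, Myh7 and Irx4) and 0 fell, and 9 did not pass. Of 10 genes of muscle maturity and the fetal heart, 3 rose (Tnni1, Myh7 and Mki67) and 3 fell (Ckmt2, Rpl3l and Acta1). With an array left out, 2 to 7 endothelial, 5 to 7 macrophage, 3 to 5 smooth muscle, 0 to 1 fibroblast, 3 ventricular and 6 maturity genes passed. The endothelial count was 2 without control 1, transgenic 1 or transgenic 2 and 4 without control 2 or transgenic 3, and the smooth muscle count was 3 without transgenic 1 or 3. The part of these shifts in the values of the junction genes was not tested.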

How the data were processed

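Hearts were compared on 6 arrays, 3 control and 3 transgenic. Total RNA (100 ng, per the labels' protocols) was primed with poly(T), amplified and labelled with biotin. The authors deposited log2 expression values for 41345 probes, made with oligo, RMA and limma, tools that appear without version in the submitters' processing notes. Probe filters and the order of steps: not given in the sources used here. In the platform annotation 23521 probes have 1 symbol, 1814 have several and 16010 have none. Those with 1 symbol were analysed, and for 1082 genes with several probes the brightest on average, which left 22180 genes. All 10 junction genes matched RefSeq by gene identifier. No 2 arrays held identical values (0 pairs).

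The test was limma's (version 3.58.1, R 4.3.3; lmFit, then eBayes, without covariates), Benjamini-Hochberg adjusted over all genes, with a threshold of 0.05. Differences are transgenic minus control, and intervals are unadjusted 95% intervals. The fit was tested on simulated data. The members, gene lists and tests were chosen with earlier results of these data known. Named genes are the members, up to 3 genes of each list by smallest p, a fixed set (among them Gjc1, Ctnnb1, Ctnna1, Vcl, Des, Tbx5, Nkx2-5, Tbx3 and Irx3), the 3 nearest genes of the 2 members that differed most, and genes of counts of 5 or fewer. Outside this rule, Tnnt2, Pln, Myl2, Tnni3, Actc1, Myh6, Epcam, the microRNA cluster genes and the genes of the cadherin run were named as well. Predicted gene, clone, olfactory and vomeronasal receptor and small nucleolar RNA symbols were passed over among nearest genes. Alternatives left out dim genes (a share of 0.333) or each array in turn, averaged or tested all probes, rescaled the arrays, or changed the variance model, weights, replicate block or sex term (2 of 3 control and 1 of 3 transgenic hearts read as male).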

Additional observations from a re-analysis of the deposited data

How the results depend on the processing

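Of the 10 junction genes, 2 passed in the main comparison, 3 with dim genes left out, with an intensity trend and robust variance or with array weights, and 1 to 3 with an array left out, the single call being Dsc2 without control 1, transgenic 1, transgenic 2 or transgenic 3. Over all genes, 2465 passed, and 1171 to 2249 with an array left out (the lowest counts being 1171 without transgenic 2, 1217 without transgenic 1, 1378 without control 1 and 1553 with transgenic 3 removed). Of 184 listed context genes 59 passed, and 31 to 50 with an array left out. The sign of genes that did not pass changed in a few fits. Gja5 lay between -0.023 and 0.35 with an array left out, Ctnna1 between -0.040 and 0.078, Ctnnb1 between -0.10 and 0.016, Gjc1 between -0.057 and 0.14 and Tbx5 between -0.032 and 0.018. Ctnna1 was -0.0079 after repeated quantile normalization and -0.025 after centring, and Tbx5 was 0.0029 with array weights. The other 9 junction genes kept their direction in all alternatives. Deviations from the group means correlated at 0.016, -0.13 and 0.014 for samples of replicate number 1, 2 and 3, so the numbers were not taken to pair the samples. With the replicate number as a block 1996 genes, 2 junction genes and 49 context genes passed. Of the named genes, Ctnnd1 (adjusted p = 0.0835), Dlg1 (0.0786) and Krt18 (0.0573) lost their calls, as did Dll4, Myl7, Pdgfrb, Postn and Slit2. The 6 arrays leave 4 residual degrees of freedom, and dim probes such as those of Gja5 and Dsg1a lie near or below the array medians, where a difference can be understated.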
